A study of Rattus norvegicus with 4 samples.

Results

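The neighbourhood described here is the stretch of rat chromosome 1 from 221100000 to 221250000, the conserved setting of the long noncoding RNAs (lncRNAs) Malat1 and Neat1. Its members are all table rows, each a listed transcript, that overlap this stretch: 14 of the 20524 rows. Of these, 6 go by the names gokla, stawflu or AC134224 with a suffix, and 8 are further rows inside the same limits. The stretch was chosen by abundance, that is, by the share of all lncRNA counts that several of its rows took in these libraries, so their high level is a description here and not a finding.

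The libraries were made from cultured cortical astrocytes of neonatal Wistar rats, kept on coverslips over neurons without touching them. In both groups the strain, the tissue and this co-culture were the same. The 2 control libraries are labelled as untreated. The 2 OGD libraries are from cells that went through oxygen-glucose deprivation for 45 min followed by 24 h in normal medium and normal oxygen, which the series calls preconditioning. Nothing in the labels ties replicates to separate cultures, so a p-value here reflects only how far these libraries spread, and that spread may be technical.

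Malat1 is a nuclear RNA that gathers in nuclear speckles, the bodies rich in splicing factors. Its primary transcript is cut near its 3′ end by RNase P, which releases a small tRNA-like RNA into the cytoplasm and leaves the long RNA in the nucleus, ended by a triple helix instead of a poly(A) tail. Neat1, transcribed from the same chromosomal block, is the scaffold of paraspeckles and is made in a short and a long form from the same start. Both are found in astrocytes and neurons, and Neat1 is known as a stress-responsive RNA.

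The tables give 0 rows the name Malat1 or Neat1. The names attached to the stretch rest on its gene order: the nearest named rows on its flanks carry Mtvr2, another name of Fam89b, and Cdc42ep2. The RefSeq gene table of assembly GRCr8, used for names only, also held 0 genes with Malat1 or Neat1 as a symbol or synonym. Rows are therefore called by their listed names. The tables name no usable genome build and no strand, so coordinates are given as listed.

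The 4 libraries held 2513804 to 2646300 lncRNA counts. Rows named after astrocyte markers existed for 4 of 9 genes (Gfap, Slc1a3, Slc1a2 and Aldoc) and summed to 32.7 to 53.7 CPM, that is, counts scaled to the library's lncRNA total, in control and 29.4 to 64.6 CPM after OGD. Rows existed for 2 of 5 fibroblast and meningeal markers (Col1a1 and Col3a1; 169 to 328 CPM in control and 184 to 310 after OGD) and for 3 of 6 neuron markers (93.6 to 112 and 110 to 114 CPM). They existed for 2 of 5 microglia markers (23.0 to 35.3 and 5.29 to 29.0 CPM), 3 of 6 oligodendrocyte lineage markers (8.44 to 16.3 and 7.94 to 9.55 CPM) and 2 of 5 endothelial and mural markers (3.84 to 7.22 and 23.9 to 32.1 CPM). Of the genes with a row, 0 were at 0 in all 4 libraries. Single marker rows stood apart between groups: the Syn1 row NONRATT030410.2 had 1 and 0 counts in the controls against 96 and 42 in the OGD libraries, and the Abcc9 row had 6 and 17 against 85 and 54. The other Syn1 row had 1 and 1 counts against 2 and 3. The only other row of the endothelial and mural list, at Pecam1, had 4 and 2 counts against 0 and 6. The higher sum of that list after OGD thus came from the Abcc9 row. The neuron rows at Gria2 and Rbfox3 had lower mean CPM after OGD, with the groups overlapping. Of all 10892 rows with enough counts to be tested, 14.2% had both OGD libraries above both controls. These rows are noncoding transcripts listed at the marker genes, and their part in the results below was not tested. In bulk RNA, fewer cells of a type and less RNA per cell cannot be told apart.

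By position the rows fell into 4 sets. EGF_CA.3.b (221103808 to 221104407) and TB.0.b (221108413 to 221108965), which bear the names of protein domains, come first. After a gap of 42861 bases comes a block of 7 rows within 6966 bases, from 221151827 to 221158792. After a further 33131 bases come jokla (221191924 to 221192632), jorkla (221199790 to 221200570) and kakla (221200983 to 221204272). The last set is Slc25a45.c (221242638 to 221243339) and Slc25a45.b (221243690 to 221244588), at the gene of a mitochondrial carrier.

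The 7-row block holds, in order, AC134224.2 (221151827 to 221153278), gokla (221152844 to 221153728), gawkla (221153903 to 221154144), AC134224.1 (221154561 to 221156910), stawflu.c (221156842 to 221157323), stawflu.b (221156842 to 221157577) and AC134224.3 (221158098 to 221158792). The row spans cover 5856 of the 6966 bases. AC134224.3 is also the row stawflu.a, so the stawflu name and the AC134224 name meet in 1 row. AC134224.2 spans 1452 bases but has a listed length of 709, stawflu.b spans 736 with 354 and stawflu.c spans 482 with 344, so these 3 rows are spliced models, whereas the listed length equals the span in the other 4.

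**Figure D1:**
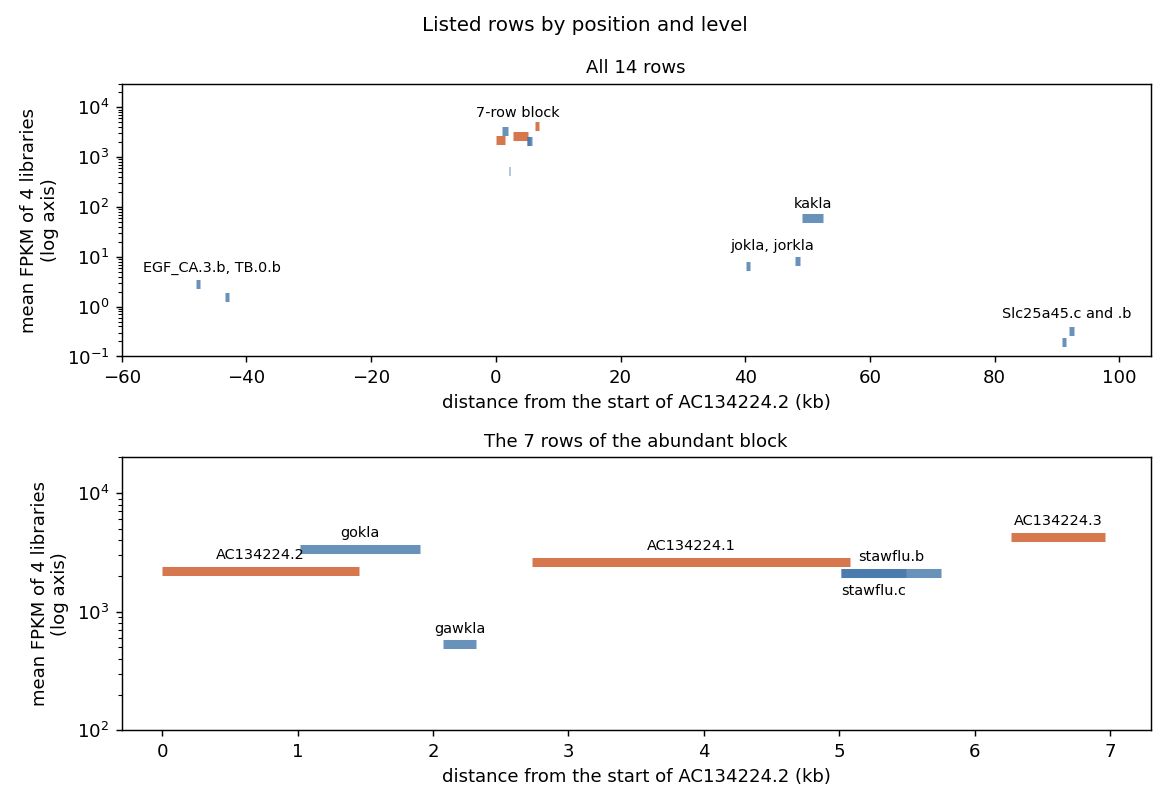
Position of each row as distance from the start of AC134224.2 in kb (x axis) against its mean FPKM over the 4 libraries (y axis, log scale), with the AC134224 rows in orange and the others in blue; the lower panel enlarges the 7-row block. The 7 rows of the abundant block lie within 7 kb at mean FPKM of 530 to 4264, and kakla, downstream of it, is at 61.3.

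Of all row pairs, 4 share bases by their listed spans. The span of a spliced row includes introns and exon positions were not used, so shared bases here need not be transcript bases. AC134224.2 and gokla share 435 bases, 49.2% of the shorter span. AC134224.1 shares its last 69 bases with both stawflu.b and stawflu.c. The span of stawflu.c lies wholly within that of stawflu.b, with 482 shared bases of span, more than the listed lengths of 344 and 354. Requiring that at least 50% of the shorter span be shared left only the stawflu pair. The sources used here do not say how a read in shared bases was counted, so overlapping rows need not be separate measurements.

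Together the 14 rows took 14.2% to 16.4% of all lncRNA counts. They held 371507 counts in control replicate 1, or 14.25% of that library (95% Wilson interval 14.21 to 14.29), and 374001 in control replicate 2, or 14.21% (14.17 to 14.25). They held 415283 counts in OGD replicate 1, or 15.69% (15.65 to 15.74), and 411665 in OGD replicate 2, or 16.38% (16.33 to 16.42). The intervals cover counting error only. Both OGD libraries lay above both controls, with means of 16.03% ± 0.483 for OGD and 14.23% ± 0.0274 for control (SD, n = 2 per group), a difference of 1.80 percentage points. With 2 libraries against 2, an exact two-sided permutation test cannot go below p = 0.333, so this difference stands as a description. A read in shared bases may enter the sum more than once. With 1 row kept of each overlapping set, the means were 13.1% ± 0.441 for OGD and 11.2% ± 0.489 for control. Of AC134224.2 and gokla the row kept was gokla, which was lowest in control replicate 2. The control mean and SD thus carry the uneven split of that pair described below.

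Nearly all of this came from the 7-row block, which held 98.4% to 98.8% of the members' counts in each library. Against the larger library total that the authors' FPKM imply, the block took 1.47% and 1.40% in the controls against 1.64% and 1.62% in the OGD libraries. By mean share, 6 of the 10 most abundant rows of the tables are members: AC134224.1 at rank 1, gokla at 3, AC134224.3 at 4, AC134224.2 at 7, stawflu.b at 9 and stawflu.c at 10. The row between AC134224.1 and gokla in that order is RF00100, with 4.84% of counts on average. Rn7sl1, an RNA of the particle that brings secreted proteins to the endoplasmic reticulum, and MSTRG.26692.3 separate AC134224.3 from AC134224.2, with 1.85% and 1.67%, and NONRATT034134.1, with 1.32%, separates AC134224.2 from stawflu.b.

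AC134224.1, the longest row of the block, was the largest single row. It had 147739 and 147703 counts in the controls against 166904 and 162185 in the OGD libraries, each in order of replicate number. Both OGD libraries were higher, and the controls were nearly equal in counts. In the scaled CPM used for the tests below, the controls were further apart, at 54008 and 59315. The share of AC134224.1 was 5.64% ± 0.0385 in control and 6.38% ± 0.102 after OGD (SD, n = 2 per group).

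AC134224.3, at the far end of the block, had 68878 and 66301 counts in the controls against 78952 and 85352 in the OGD libraries, in order of replicate. The groups did not overlap, and the OGD libraries were spread wider than the controls. Its share was 2.58% ± 0.0867 and 3.19% ± 0.291 (SD, n = 2 per group). The smaller stawflu rows followed the same order: stawflu.b had 18367 and 17791 counts in the controls against 20249 and 20109 in the OGD libraries.

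The counts of stawflu.c were 17443 and 17053 in the controls against 19555 and 19451 in the OGD libraries, 49% of the sum of both stawflu rows in every library (range 48.7% to 49.2%). The short row gawkla, unspliced and 242 bases long, had 3134 and 3082 counts in the controls against 3466 and 3279 in the OGD libraries. Each of these rows had both OGD libraries above both controls, by margins smaller than that of kakla, described below.

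**Figure D2:**
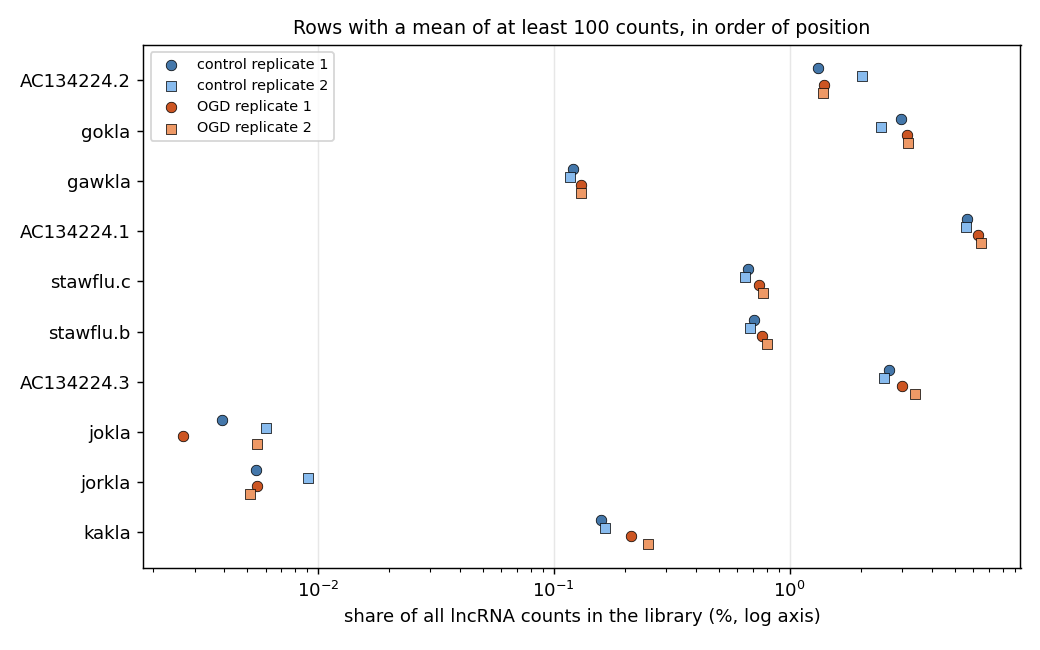
Share of all lncRNA counts (x axis, percent, log scale) of the 10 rows with a mean of at least 100 counts, listed in order of position, with 1 point per library. In AC134224.1, AC134224.3, gokla, gawkla, both stawflu rows and kakla the OGD points lie to the right of both control points; AC134224.2 has control replicate 2 apart from the other 3 libraries.

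At the near end of the block, AC134224.2 and gokla were split differently in 1 library. AC134224.2 had 34372 counts in control replicate 1 and 53188 in control replicate 2, against 36858 and 34749 in OGD replicates 1 and 2. Control replicate 2 stood apart and the other 3 libraries were close together. In gokla the same library was the lowest, with 64077 counts against 77154 in control replicate 1, 83430 in OGD replicate 1 and 79895 in OGD replicate 2.

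As a share of the counts of both rows, AC134224.2 took 30.8% in control replicate 1 (95% Wilson interval 30.5 to 31.1), 45.4% in control replicate 2 (45.1 to 45.6), 30.6% in OGD replicate 1 (30.4 to 30.9) and 30.3% in OGD replicate 2 (30.0 to 30.6). The sum of both rows was steadier, at 111526 and 117265 counts in the controls against 120288 and 114644 in the OGD libraries. As a share of lncRNA counts the sum was 4.37% ± 0.126 for the controls and 4.55% ± 0.0107 for OGD (SD, n = 2 per group). Whether reads of the 435 bases shared by the spans were assigned differently in control replicate 2 was not tested.

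**Figure D3:**
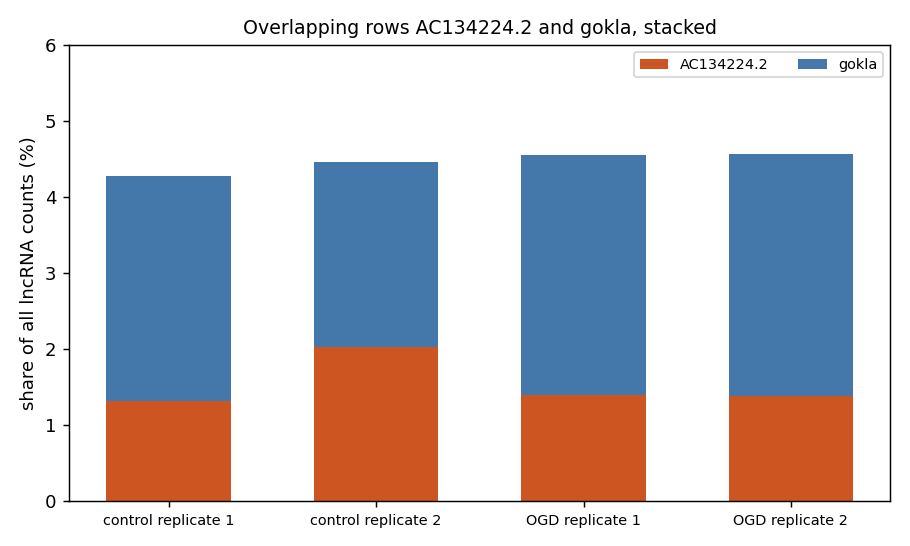
Stacked shares of all lncRNA counts (y axis, percent) for the overlapping rows AC134224.2 and gokla in each of the 4 libraries (x axis). The total is 4.28% to 4.56%, while AC134224.2 takes 2.02% in control replicate 2 and 1.32% to 1.39% in the other 3.

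Downstream of the block, kakla was the main row, an unspliced model of 3290 bases. It had 4114 and 4358 counts in the controls against 5611 and 6301 in the OGD libraries, each in order of replicate number. Both OGD libraries were above both controls, and the controls were closer to each other than the OGD libraries were. Its FPKM, fragments scaled by listed length and library total as the authors computed it, was 50.2 ± 0.0786 in control and 72.5 ± 5.77 after OGD (SD, n = 2 per group). Per 1000 counts of the 7-row block, kakla had 11.2 and 11.8 counts in the controls against 13.7 and 15.6 in the OGD libraries, so its level relative to the block was also higher in both OGD libraries.

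The rows beside kakla did not share its pattern. Counts of jorkla, 412 bases before it, were 143 and 238 in the controls against 146 and 130 in the OGD libraries, with control replicate 2 apart and the groups overlapping. Counts of jokla were 102 and 158 in the controls against 71 and 139 in the OGD libraries, higher in both libraries of replicate number 2. These are rows of low level, at 8.26 and 6.52 FPKM on average.

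The outer rows were lower still. EGF_CA.3.b had 39 and 33 counts in the controls against 17 and 31 in the OGD libraries, and TB.0.b had 17 and 10 in the controls against 10 and 29 in the OGD libraries. Slc25a45.c had 2 and 3 counts in the controls against 5 and 4 in the OGD libraries, and Slc25a45.b had 3 and 6 in the controls against 9 and 11 in the OGD libraries. Just outside the limits, NONRATT003464.2 had 1, 1, 12 and 3 counts and the Cdc42ep2 row had 32, 49, 37 and 26, in the order control replicates 1 and 2 and OGD replicates 1 and 2. The limits thus fall among rows of few counts on both sides.

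Per length, the order of mean FPKM over the 4 libraries was AC134224.3 (4264), gokla (3407), AC134224.1 (2628), AC134224.2 (2208), stawflu.b (2138), stawflu.c (2113), gawkla (530), kakla (61.3), jorkla (8.26), jokla (6.52), EGF_CA.3.b (2.80), TB.0.b (1.55), Slc25a45.b (0.319) and Slc25a45.c (0.197). The ranges over libraries of neighbours overlapped among the first 6 rows, and gawkla, kakla and jorkla each lay below the full range of the row before. The order of AC134224.2 and stawflu.b turned on 1 library: AC134224.2 was the lower in 3 of 4 libraries. Below the first 6 rows the level stepped down to 483 to 574 FPKM at gawkla and 50.1 to 76.6 FPKM at kakla.

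Differences between OGD and control were tested with edgeR's quasi-likelihood test on counts of all rows, with Benjamini-Hochberg adjustment over the 10892 rows that had enough counts; 12 of the 14 members were among them, all but the Slc25a45 rows. By edgeR 0 members passed the adjusted threshold of 0.05, against 1 row (0.00918%) of all tested rows, and each of the 12 had an adjusted p of 1.00. In simulated counts the same fit called 2% of 50 rows changed 2-fold and 28% of 50 rows changed 4-fold. These rows were drawn at random from all tested rows, so the rates need not hold for rows as abundant as those of the block. The changes of the 12 tested members were all smaller than 2-fold, the smallest change simulated. Thus 0 calls do not show that the members were unchanged. DESeq2 also called 0 members, against 85 (0.605%) of the 14042 rows to which it gave an adjusted p. At an unadjusted p under 0.05 edgeR had 1 member, kakla, against 2.68% of all tested rows.

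The groups were next compared by whether they overlapped in CPM scaled by trimmed mean of M values (TMM). Both OGD libraries lay above both controls in 7 of the 12 tested members (kakla and all of the block except AC134224.2), against 14.2% of all tested rows and 10.3% of the 359 tested rows with a mean of at least 1000 counts. Both lay below in 1, EGF_CA.3.b, against 14.1%. Rows of the block lie next to each other and partly overlap, so they are not independent counts of the same event. With gokla and AC134224.2 summed to 1 row, the groups overlapped. That sum was at 40763 and 47090 CPM in the controls against 45559 and 47861 in the OGD libraries. The median log2 fold change of the 12 tested members was 0.21, beside -0.0046 over all tested rows.

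The largest difference among the abundant members was that of kakla, with 1627 ± 174 CPM in the controls against 2378 ± 357 CPM in the OGD libraries (SD, n = 2 per group). Its log2 fold change was 0.55 (SE 0.20, unadjusted p = 0.0472, adjusted p = 1.00 in edgeR). Within replicate numbers, the log2 ratio of its share was 0.43 for number 1 and 0.60 for number 2.

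In the block, AC134224.3 measured 25902 ± 1022 CPM in the controls against 32764 ± 4052 CPM in the OGD libraries (SD, n = 2 per group), a log2 fold change of 0.34 (SE 0.20, unadjusted p = 0.164 in edgeR). AC134224.1 measured 56661 ± 3752 and 65455 ± 3180 CPM, a log2 fold change of 0.21 (SE 0.20, unadjusted p = 0.358 in edgeR). Within replicate numbers 1 and 2, the log2 ratios of shares were 0.18 and 0.43 for AC134224.3 and 0.15 and 0.20 for AC134224.1. The log2 fold changes of stawflu.c, stawflu.b and gawkla were 0.23, 0.21 and 0.17, each with an SE of 0.16 to 0.17. In this fit on group alone, 0 of the 7 adjacent rows had an unadjusted edgeR p under 0.05, against 2.68% of all tested rows. That count depends on the model: with the replicate number as a block, 5 of the 7 adjacent rows and kakla had one (edgeR, 6 of 12 members, against 3.86% of all tested rows), and 0 passed after adjustment.

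For gokla the log2 fold change was 0.27 (SE 0.19), and for AC134224.2 it was -0.25 (SE 0.31). Both moved with the way their counts are joined: summed to 1 row, an alternative chosen after seeing the data, they gave 0.089 (SE 0.21, unadjusted p = 0.695 in edgeR). Without control replicate 2, AC134224.2 turned to 0.19, close to the 0.21 of gokla in the same fit. A sum has a single sign, so it cannot test the opposite signs of these rows. Those signs did not hold when control replicate 2 was left out.

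Among the rows of few counts, jorkla was at -0.43 (SE 0.36), jokla at -0.25 (SE 0.50), EGF_CA.3.b at -0.51 (SE 0.44) and TB.0.b at 0.62 (SE 0.69) on the log2 scale. Leaving out 1 library turned the sign of jorkla, jokla and TB.0.b, and EGF_CA.3.b ranged from -1.09 to -0.066. Their direction is not settled by these libraries.

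**Figure D4:**
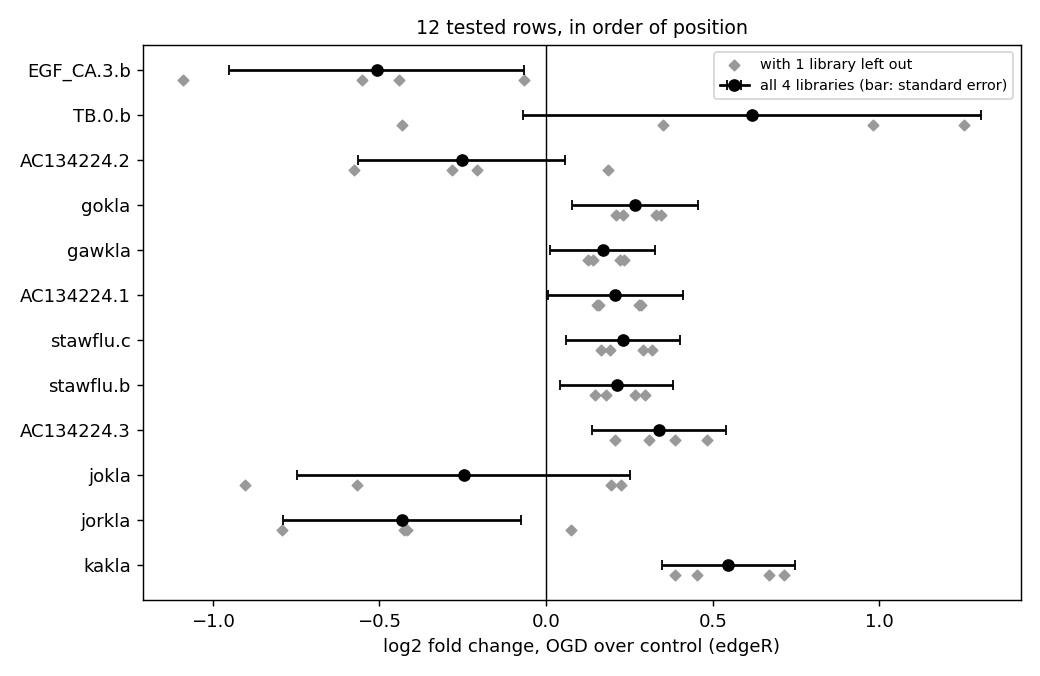
Log2 fold change of OGD over control by edgeR (x axis) for the 12 tested rows in order of position, with black points and standard error bars for all 4 libraries and grey diamonds for fits with 1 library left out. Diamonds stay above 0 for kakla (0.39 to 0.71) and for 6 rows of the block, and fall on both sides of 0 for AC134224.2, jokla, jorkla and TB.0.b.

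The rows most like the summed profile of the 14 members over the 4 libraries were sought among the 352 other rows with a mean of at least 1000 counts. Likeness was the root mean square difference of log2 CPM, each row centred on its own mean; the median over all 360 rows compared, members included, was 0.191. Among the closest were zofor (chromosome 17, 14078817 to 14081951) at 0.0369 and toymaw (chromosome 11, 84613101 to 84615881) at 0.0388. The counts of zofor were 1002 and 949 in the controls against 1081 and 1042 in the OGD libraries, and those of toymaw were 1056 and 1019 against 1208 and 1128. With 4 libraries, such likeness describes these libraries only.

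Proteins that Malat1 and Neat1 are known to meet were followed through rows named after their genes, which are noncoding transcripts listed there and can hold reads of the messenger RNA. Of 22 paraspeckle protein genes, 12 had rows. Of their 23 tested rows 0 passed in edgeR. An unadjusted p under 0.05 was held by 0, against 2.68% of all tested rows. Both OGD libraries were above both controls in 6 and below in 3, against 14.2% and 14.1% of all tested rows, and the median log2 fold change was 0.06. The row of Tardbp, the gene of the RNA-binding protein TDP-43, was at 641 ± 101 CPM in the controls against 646 ± 50.7 CPM in the OGD libraries (SD, n = 2 per group).

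Of 17 nuclear speckle protein genes, 14 had rows. Of their 33 tested rows 0 passed in edgeR, 13 had both OGD libraries above both controls and 6 had both below, against 14.2% and 14.1% of all tested rows, and the median log2 fold change was 0.11. The row NONRATT006310.2 at Srsf2, the gene of a splicing factor, was the 1 row with an unadjusted p under 0.05 (2.68% of all tested rows), at 38.1 ± 0.450 CPM in the controls against 23.5 ± 2.18 CPM in the OGD libraries (SD, n = 2 per group; edgeR). Another row of Srsf2, NONRATT006311.2, lay the other way, at 280 ± 41.5 and 371 ± 14.1 CPM. These rows of 1 gene thus lay in opposite directions, but their listed spans overlap, so they need not be separate measurements.

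Genes of the enzymes that cut the 3′ end of Malat1 had rows for 3 of 5 names. Of 6 tested rows 0 passed in edgeR. Both OGD libraries lay above both controls in 1, at Rpp30, with 37 and 44 counts in the controls against 49 and 61. Other tested Rpp30 rows overlapped between groups. Both lay below in 2, at Rpp21, of an RNase P subunit, and the spans of these Rpp21 rows overlap. The shares over all tested rows were 14.2% and 14.1%, and 1 of the 6 rows had an unadjusted p under 0.05, against 2.68%. That Rpp21 row, NONRATT017017.2, had 49 and 50 counts in the controls against 23 and 20 in the OGD libraries (log2 fold change -1.15, SE 0.28, unadjusted p = 0.0130, adjusted p = 1.00 in edgeR). Elac2, the gene of an RNase Z, had a row with 22 and 29 counts in the controls against 11 and 24 in the OGD libraries, with the groups overlapping. Another Elac2 row, with too few counts to be tested, lay the other way, at 1 and 3 against 7 and 5. A further Rpp21 row, also untested, was not lower after OGD, at 5 and 3 against 6 and 4.

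Of 21 names of coding genes of the same chromosomal block, some of them synonyms, 6 had rows outside the stretch. Of 4 tested rows, 0 passed in edgeR and 0 had an unadjusted p under 0.05, against 2.68% of all tested rows. The row Mtvr2 at Fam89b (221086032 to 221087639) had 281 and 211 counts in the controls against 205 and 178 in the OGD libraries, so both OGD libraries were lower. The Rela row, at the gene of the NF-kappa-B subunit p65, had 14 and 5 counts in the controls against 9 and 11 in the OGD libraries, with the groups overlapping. Of these 4 rows, 0 had both OGD libraries above both controls and 1 had both below, against 14.2% and 14.1% of all tested rows.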

How the data were processed

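Each library has a deposited table of read counts, as whole numbers, beside FPKM for the same 20524 lncRNA transcripts, per the file headers. The submitters' processing notes list HISAT2 and StringTie. Those notes also name the mouse build mm9, while the tables list 20 numbered autosomes and rat identifiers, so no build is given here. For the counting program and its use of strand, nothing is given in the sources used here. The deposited FPKM gave, for all rows above 0 within 0.1%, the same library total of 24934040 to 26371055.

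Counts were tested per row with edgeR 4.0.16 in R 4.3.3 (filterByExpr, TMM, quasi-likelihood F test on group alone), and the steps were tested on simulated data. Approximate standard errors come from the F statistic (log2 fold change over the root of F). CPM of tested rows are TMM-scaled, and CPM of summed lists use all lncRNA counts of the library. DESeq2 1.42.0 and limma 3.58.1 on log2(FPKM + 1) or log2(FPKM + 0.1) were alternatives. At these depths 3 counts equal 1.13 to 1.19 CPM.

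Members and lists were chosen with earlier results of these data known. Every member is named. Outside the stretch, the rule named the 3 rows of most similar profile (1 is not reported here), rows ranked between members among the 10 largest shares, and rows of the fixed gene lists; examples within lists were chosen after their values were seen.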

Additional observations from a re-analysis of the deposited data

How the results depend on the processing

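Of 168 member values under 14 alternatives, 162 kept their direction, 0 passed an adjusted p of 0.05 and 6 turned, all of rows that had not passed. These values are not separate checks. Where rows were summed, the same value counts for each of them, and all alternatives use the same libraries. AC134224.2 was at 0.089 with overlapping rows summed, and without control replicate 2 AC134224.2, jorkla and jokla were at 0.19, 0.075 and 0.19. Without OGD replicate 1 jokla was at 0.22, and without OGD replicate 2 TB.0.b was at -0.43. With 1 library left out the ranges were -0.58 to 0.19 for AC134224.2, -0.79 to 0.075 for jorkla, -0.90 to 0.22 for jokla and -0.43 to 1.25 for TB.0.b. The log2 fold change of kakla ranged from 0.39 to 0.71. The single row called over the whole table became 85 with DESeq2, 8 with rows summed per locus name, 8 with totals implied by FPKM (chosen after seeing the data), 12 and 13 with limma at pseudocounts of 1 and 0.1, and 0 to 0 in edgeR with a library left out, where 343 to 466 rows had an unadjusted p under 0.05; the cause was not tested. With the replicate number as a block, edgeR called 0 rows, and 6 of 12 members had an unadjusted p under 0.05, against 420 rows (3.86%) of all tested: kakla (0.00351, adjusted p 0.554), AC134224.3 (0.0155), AC134224.1 (0.0261), stawflu.c (0.0263), stawflu.b (0.0337) and gokla (0.0375), the last 5 with an adjusted p of 0.901. Totals implied by FPKM gave AC134224.3 an unadjusted p of 0.0461. What the number marks is not in the labels; deviations of same-numbered libraries from group means correlated at 0.193 across rows. The difference in the summed share was 1.80 percentage points of lncRNA counts, 0.202 of the FPKM-implied total, 2.51 relative to counts outside the stretch, and 1.46 to 2.15 with a library left out. Overlapping pairs numbered 4 at any shared base and 1 when 50% of the shorter span was required. In the 7-row block, log2 fold changes of -0.25 to 0.34 stand beside standard errors of 0.16 to 0.31, and with the replicate block the standard errors of the same rows were 0.054 to 0.20.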
